A study of Mus musculus with 36 samples.

Results

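The nuclear genes of oxidative phosphorylation were examined in RNAseq libraries of primary mouse cortical cultures. They were chosen by name, as the protein-coding genes whose GENCODE symbol begins with Nduf followed by a, b, c, s or v and a digit, with Cox4 to Cox8, with Uqcr or with Atp5, together with Ndufab1, Sdha, Sdhb, Sdhc, Sdhd, Cyc1 and Cycs. The rule found 88 entries of the 55492 in the table, and 80 of them had a mean count above 5, out of 20355 entries that passed this filter. Of the 80 genes, 36 belong to complex I, 4 to complex II, 9 to complex III, 13 to complex IV and 17 to complex V, and Cycs encodes the carrier cytochrome c. Ndufa4 was counted with complex IV. Cells from the cortex of mouse embryos at day 18 were grown to day 11 in vitro and then kept for 72 h in fresh medium (control), in medium with DEX (dexamethasone, a glucocorticoid receptor agonist) at 1 µM, or in medium with DEX and RU-486 (mifepristone, which antagonises that receptor), both at 1 µM. There were 12 libraries per group, 6 in each of the 2 batches that the labels name without saying what a batch stands for. The cells were bought as dissociated cortex, so each library holds RNA of all cell types that survived in the dish, and in such a mixture fewer cells of a type and less RNA per cell cannot be told apart.

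Oxidative phosphorylation takes place in the inner membrane of mitochondria. Complexes I and II pass electrons from NADH and succinate to ubiquinone, complex III passes them on to cytochrome c, and complex IV hands them to oxygen, while complexes I, III and IV pump protons that drive ATP synthesis by complex V. Most subunits are encoded in the nucleus and imported, a few core subunits are encoded in the mitochondrial genome, and neurons draw on this pathway for most of the ATP that ion pumping and synaptic transmission consume.

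Depth ran from 12.1 to 82.4 M counts per library with a median of 25 M, and no pair of libraries was identical. The labels give each library an RNA integrity number (RIN), in which a higher value stands for more intact RNA, and 28 of the 36 libraries had a RIN of 6 or above. Of the other 8, 6 were in batch 2 with a RIN between 1.4 and 2.7, 2 in each group, and 2 were in batch 1, a DEX library of RIN 3.9 and a DEX + RU-486 library of RIN 5.6. In batch 1 with intact RNA, the 6 control libraries had a RIN of 7.8 to 9.2 and a depth of 24.2 to 82.4 M, the 5 DEX libraries a RIN of 6.2 to 7.8 and 12.1 to 15.1 M, and the 5 DEX + RU-486 libraries a RIN of 6.6 to 7.9 and 17.4 to 26.7 M. Treatment, RIN and depth therefore cannot be told apart by design in batch 1, while the intact libraries of batch 2 (4 per group) had a RIN of 7.4 to 8 in controls, 7.4 to 7.7 with DEX and 7.6 to 8.7 with DEX + RU-486. Of 5 known glucocorticoid targets, none passed the edgeR test over all libraries, while Per1 (log2 fold change 0.82), Tsc22d3 (0.67) and Zbtb16 (0.91) were higher with DEX in batch 1 and Sgk1 (0.21) and Fkbp5 (-0.25) were not called. In batch 2 none of the 5 was called, with Zbtb16 at 0.41, Fkbp5 at 0.11, Per1 at -0.03, Tsc22d3 at -0.14 and Sgk1 at -0.25. Markers of neurons were abundant in every library, and those of microglia summed to 5.17 CPM (counts scaled to the library total multiplied by its TMM factor, which corrects for the composition of a library) at most.

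Promoter sequences of RefSeq on GRCm38.p6, from 250 bases before to 50 after the start, were found for 66 of the 80 genes, and 4 short motifs were searched on both strands because they bear on how these genes are known to be controlled. NRF1, GABPA (an ETS factor) and YY1 are textbook regulators of respiratory genes, and the glucocorticoid receptor binds a palindrome. The NRF1 palindrome was in the promoters of 5 members (7.58%, against 1.07% of 27025 genes), Atp5g2, Atp5k, Cox6a1, Ndufa11 and Uqcrc1. The ETS letters CCGGAAG were in 16 (24.2% against 9.93%), and the YY1 motif in 5 (7.58% against 0.995%), Atp5j, Ndufa9, Ndufs4, Ndufs6 and Ndufs7. The palindrome of the receptor was in 0 of the 66 and in 3 genes in all, which says only that its letters are not in this window. The stretches below show the NRF1 palindrome in 4 members and the YY1 motif in Atp5j, with the letters searched in capitals within 30 bases, 5′ to 3′ on the strand named.
Atp5g2, chr15:102671070-102671099, minus strand: ggctccggccGCGCATGCGCagagccttcc
Atp5k, chr5:108434430-108434459, minus strand: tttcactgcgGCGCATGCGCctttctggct
Cox6a1, chr5:115349101-115349130, minus strand: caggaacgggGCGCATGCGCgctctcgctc
Ndufa11, chr17:56717692-56717721, plus strand: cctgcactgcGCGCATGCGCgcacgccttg
Atp5j, chr16:84835045-84835074, minus strand: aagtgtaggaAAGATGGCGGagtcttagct
In these 5 promoters the motif begins at position -42 (Atp5g2), -50 (Atp5k), -162 (Cox6a1), -60 (Ndufa11) and -88 (Atp5j) from the RefSeq start. All of the stretches except that of Ndufa11 overlap an exon that GENCODE annotates.

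Levels between genes were compared per kilobase of transcript (CPM per kilobase), in the 6 batch 1 controls. Cox6c, a small subunit of complex IV, stood first at 190 ± 21.9 (SD, n = 6), followed by Atp5b, the catalytic beta subunit of ATP synthase, at 172 ± 16.7, and Cox4i1, the largest nuclear subunit of complex IV, at 156 ± 14.4. Atp5a1 (alpha subunit, 139 ± 9.15), Atp5h (peripheral stalk, 135 ± 16.1) and Cox5b (zinc-binding subunit, 132 ± 15.6) came next and differed from one another by less than their SD. The median level was 65.7 CPM per kilobase over complex V, 53.5 over complex III, 48.8 over complex IV, 30.7 over complex I and 29.7 over complex II. Within complex I, Ndufb9 was highest at 85.4 and Ndufb2 lowest at 3.52. Within complex II the iron-sulfur subunit Sdhb was at 50.7, the flavoprotein Sdha at 35.1 and the membrane anchors Sdhd and Sdhc at 24.3 and 9.71. These levels divide by the longest transcript, and part of the order turned with that choice. Per kilobase of the shortest basic transcript (455 bases against 4371 for Ndufb2), Ndufb2 was at 33.8, Ndufa5 (157) was highest and Ndufb3 (14.5) lowest in complex I, Sdhc was at 37.8, and complex IV had the highest median (78.6, against 68.0 for complex V). Cox6c stayed first and Cox6a2 and Atp5s last with either choice.

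Isoform genes differed widely in level. The 3 genes that encode the same mature c subunit of the ATP synthase rotor ring were at 58.8 ± 8.32 (Atp5g3), 14.6 ± 3.09 (Atp5g2) and 5.76 ± 0.50 (Atp5g1) CPM per kilobase of the longest transcript. Per kilobase of the shortest they were at 59.5 ± 8.42, 24.2 ± 5.13 and 45.6 ± 3.92, so Atp5g3 was highest both ways and the order of Atp5g2 and Atp5g1, whose longest transcript has 4715 bases, turned with the choice. Cox6a1 was at 103 ± 15.7 and its heart and muscle counterpart Cox6a2 at 2.42 ± 2.02. Most other tissue-restricted isoforms were among the 8 entries that did not pass the count filter, with total counts over the 36 libraries of 21 for Cox4i2, 34 for Cox7a1, 14 for Cox7b2, 99 for Cox6b2, 2 for Cox8b, 0 for Cox8c and 156 for Ndufa4l2. A further gene identifier that carries the symbol Atp5o had 24 counts and was left out.

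**Figure D1:**
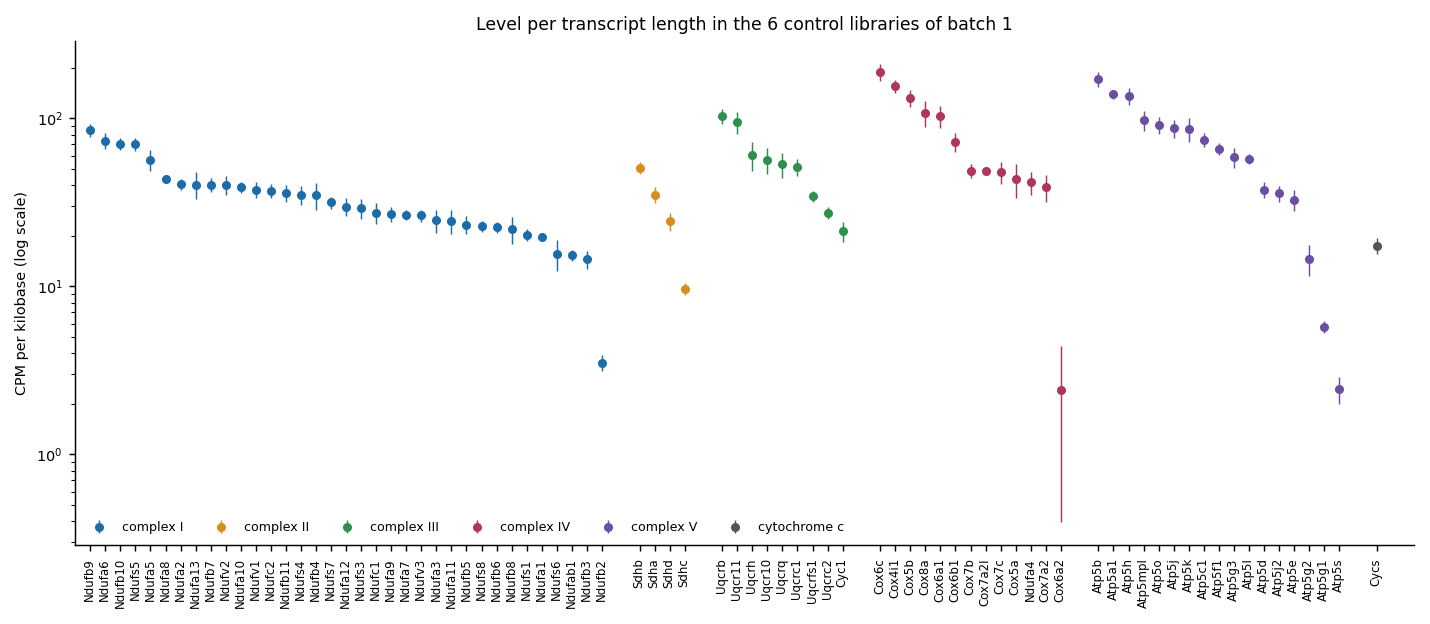
Level of nuclear subunit genes in the 6 control libraries of batch 1, in CPM per kilobase of the longest GENCODE basic transcript on a log axis, grouped by complex and ordered by level, with points for the mean and bars for the SD. Cox6c (190), Atp5b (172) and Cox4i1 (156) are at the top, and Ndufb2 (3.52), Atp5s (2.45) and Cox6a2 (2.42) at the bottom.

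The question of the treatment contrasts was whether 72 h of DEX changed these genes and whether RU-486 changed them back. Over all 36 libraries, with the batch as a covariate, no nuclear subunit gene passed the threshold for DEX against control. The median log2 fold change of the 80 was 0.01, beside -0.01 over all tested genes. In the quasi-likelihood test of edgeR, adjusted over all genes after Benjamini-Hochberg, 0 were higher and 0 lower at an adjusted p under 0.05, where the background was 0.0147% of genes higher and 0.00983% lower. Before adjustment, at a p under 0.05, Cox5b was higher (1 member, 0.35, where 6.86% of all genes were) and 7 were lower (8.75%, where 10.1% were), and DESeq2 also called 0. The smallest adjusted p by edgeR was 0.116, for Atp5c1, the central stalk subunit of ATP synthase, at -0.23 ± 0.075 (SE). All 4 genes of complex II were below zero (median -0.13), and 10 of 13 of complex IV were above (median 0.05). Limited to the 28 libraries of RIN 6 or above, the same contrast called 2 members higher (Cox5b and Uqcrh, background 7.83%) and 11 lower (background 11.9%), with a median of -0.08.

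With DEX + RU-486 against control over all libraries, again 0 genes were called in either direction by edgeR or by DESeq2, where the background was 0% both ways. Unadjusted, at a p under 0.05, 15 members were lower (18.8%, where 6.63% of all genes were) and 0 higher (4.19% of all genes), and the median was -0.09 (0.02 over all genes). Complex II had the lowest median, -0.25. The gene with the smallest p was Uqcrc1, a core protein of complex III, at -0.30 ± 0.089 with an edgeR Benjamini-Hochberg adjusted p of 0.199. DEX + RU-486 against DEX called 0 members (0 before adjustment at a p under 0.05, where 1.44% of all genes were higher and 1.23% lower, 0 by DESeq2, background 0%), with a median of -0.07. In the 28 libraries of RIN 6 or above, DEX + RU-486 against control called 19 members lower and 0 higher (background 5.87% lower and 2.99% higher), with a median of -0.14. Both of the contrasts with control share the same control libraries.

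Within batch 1 and with intact RNA only, 20% of these genes were lower with DEX, a share next to that of all protein-coding genes (19.8%). Uqcrc2, a core protein of complex III (chr7:120635176-120659524, plus strand), lay in the control libraries at 45.6 at the lowest, 53.3 at the median and 57.6 at the highest, in CPM. In the 5 DEX libraries it was at 41.1, 35, 35.5, 38 and 47.4. A single DEX library thus reached into the control range, and the others lay below it. The log2 fold change was -0.41 ± 0.097 (SE, as for all fold changes given with an error), with an edgeR Benjamini-Hochberg adjusted p of 0.00255.

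Ndufs1, the largest iron-sulfur subunit of complex I (chr1:63143596-63176833, minus strand), ranged in the batch 1 controls from 48.7 to 60.6 CPM with a median of 53.4. The DEX libraries were at 47.8, 43.5, 41.3, 41.9 and 46.1, all below the lowest control. Its log2 fold change was -0.29 ± 0.082 (edgeR Benjamini-Hochberg adjusted p = 0.00983). Atp5b (chr10:128083273-128090391) was at 290 to 368 CPM in controls (median 327) and at 233, 257, 325, 224 and 249 with DEX, so that 1 DEX library lay at the control median and 4 lay below all controls. Its change was -0.35 ± 0.098, with an adjusted p of 0.00869 in edgeR after Benjamini-Hochberg.

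In all, 16 of the 80 genes were lower with DEX in batch 1 and 0 were higher (20%, where the background was 14.6% of all entries lower and 8.82% higher, and 19.8% and 7.97% of protein-coding genes; 1 was higher before adjustment). The median of the 80 was -0.16, against 0.01 over all genes, and 56 of 80 were below zero. In complex I, 6 of 36 fell, among them Ndufab1, the mitochondrial acyl carrier protein (-0.40), Ndufs1 and Ndufa9 (-0.28). In complex II, Sdha (-0.28) and the anchor Sdhd (-0.30) fell, 2 of 4. In complex III, 3 of 9 fell, Uqcrc2, Uqcrc1 (-0.27) and the Rieske iron-sulfur protein Uqcrfs1 (-0.34). In complex V, 5 of 17 fell, namely Atp5a1 (-0.24), Atp5b, Atp5c1 (-0.33), the peripheral stalk subunit Atp5f1 (-0.31) and Atp5o (-0.27). In complex IV, 0 of 13 were called by edgeR and the median was -0.01, while DESeq2 called Cox7a2l higher. The highest values, none of them called by edgeR, were those of Uqcrh, the hinge protein of complex III (0.33), Ndufa13 (0.28) and Cox7a2l (0.21).

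These calls moved with the scaling and with RIN. Scaling by relative log expression left 6 lower members, a minimum of 10 counts in every library left 4 and gave 5 higher ones (Cox7a2l, Ndufv3, Ndufa13, Uqcrh and Uqcr11), and RIN as a covariate left 2, Atp5b and Sdha. Without control replicate 5, the deepest library, 4 members were lower, without control replicate 1, 2 or 4 there were 6, 4 and 8, without DEX replicate 7, 8 or 9 there were 9, 8 and 9, and without DEX replicate 11 there were 25. The split of all genes was 1796 higher and 2981 lower (37.6% higher) with the scaling used, and 2175 and 2231 (49.4% higher) by relative log expression. Scaled by total counts alone, 38 members were lower (22.7% of all genes), with a median of -0.34 against -0.17 over all genes.

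Batch 1 with DEX + RU-486 gave 20 lower members and 0 higher (25%, background 11.6% of entries lower and 7% higher, and 15.8% of protein-coding genes lower; none higher before adjustment or by DESeq2). The median was -0.18 (0.02 over all genes), and 67 of 80 were below zero. Ndufs1 was at 39.5, 43.2, 40.8, 40.4 and 37.3 CPM in the 5 libraries, again all below the lowest control of 48.7. Its log2 fold change was -0.42 ± 0.081, with an edgeR Benjamini-Hochberg adjusted p of 0.000526. Ndufv1 (chr19:4007384-4012806), which binds NADH and the flavin, was at 51.5, 46.2, 42.5, 42.8 and 43.7 CPM against 55.3 to 72 (median 59.3) in controls, without overlap. Ndufv1 fell by 0.46 ± 0.090 on the log2 scale, with an adjusted p of 0.000591 by edgeR and Benjamini-Hochberg.

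The lower genes in the DEX + RU-486 cultures of batch 1 were spread over all complexes. All 4 genes of complex II fell, from -0.33 for Sdha to -0.38 for Sdhc. In complex III, Uqcrfs1 (-0.43), Cyc1, the cytochrome c1 haem protein (-0.43), Uqcrc2 (-0.35) and Uqcrc1 (-0.34) fell, 4 of 9. In complex V, 5 of 17 fell, Atp5f1 (-0.40), Atp5b (-0.37), Atp5o (-0.33), Atp5a1 (-0.28) and Atp5c1 (-0.27), and in complex I also 5 of 36. Cycs fell (-0.40), and Cox4i1 was the only gene called in complex IV (-0.33, edgeR adjusted p = 0.0418 after Benjamini-Hochberg). Cox4i1 (chr8:120668222-120674207) was at 104 to 128 CPM (median 125) in the controls and at 134, 93.4, 78.9, 84.7 and 83.2 in these libraries, of which 1 lay above all controls and 4 below them. Cox6a2 had the highest value, 0.85 ± 0.53, uncalled, on 6.74, 1.22, 3.67, 1.96 and 1.28 CPM in the 5 libraries. With RIN as a covariate 9 of the 80 were lower, with all RIN values admitted 4, without control replicate 2 or 5 there were 5 and 12, and without DEX + RU-486 replicate 15 or 17 there were 11 and 8. In this contrast the split of all genes went from 37.6% higher to 46.4% higher by relative log expression. Scaled by total counts alone, 66 members were lower (30.8% of all genes), with a median of -0.52 against -0.30 over all genes.

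DEX + RU-486 passed the test against DEX for no member in batch 1 (0 both ways by edgeR and by DESeq2, 0 higher and 2 lower before adjustment, where 3.63% and 2.68% of all genes were, background 0% both ways). The median was -0.06, with 58 of 80 below zero. Cox6a2 had the highest value, 0.85, and the 4 genes of complex II were all below zero.

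**Figure D2:**
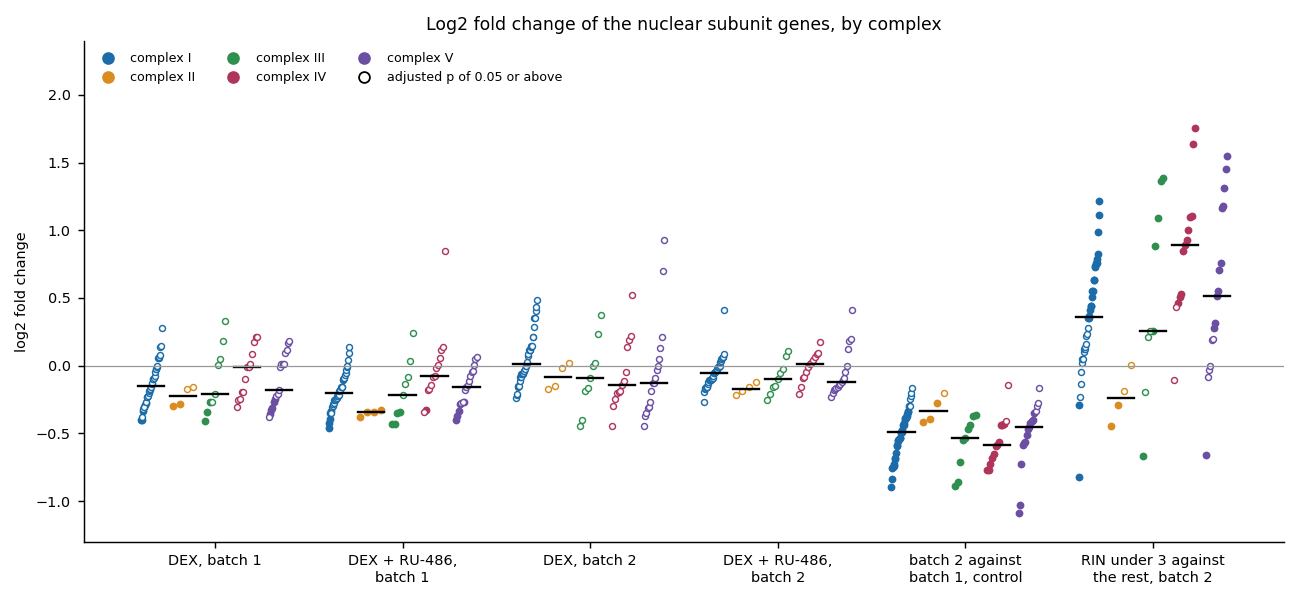
Log2 fold change of the nuclear subunit genes in 6 comparisons of libraries (the first 4 against the control of the same batch with RIN of 6 or above), each point a gene in the colour of its complex, filled where the edgeR adjusted p was under 0.05, with bars for the median of a complex; Cycs is left out. Filled points lie below zero in batch 1 and in the contrast of batches, none is filled for the treatments in batch 2, and most (66 of 80) lie above zero for RIN under 3 with TMM scaling, against 16 of 80 when scaled by total counts alone.

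Other genes of the pathway and cell markers moved in the same libraries. Of 13 subunits encoded in the mitochondrial genome, 3 were higher with DEX in batch 1 (mt-Nd3 1.3, mt-Nd4l 1.00, mt-Co2 0.86) and 11 with DEX + RU-486 (mt-Co1 0.88, mt-Cytb 0.95), so they moved opposite to the nuclear members that were called there. In batch 2 only mt-Nd6 was called, higher with DEX (1.09) and lower with DEX + RU-486 against DEX (-0.81). In that batch mt-Co2 was at -0.60 with DEX, uncalled. Of 46 assembly factors, 2 were higher with DEX in batch 1, Surf1 (0.42) and Acad9 (0.23), and 5 were lower, with Ndufaf4, an assembly factor of complex I, at -0.79. With DEX + RU-486, 3 were lower (Ndufaf4 -0.77, Cox10 -0.53 and Cox15 -0.32). Beside these counts, 7.97% of protein-coding genes were higher and 19.8% lower with DEX, and 15.8% were lower with DEX + RU-486. Of 12 regulators of mitochondrial biogenesis, none was called with DEX and Pprc1 was lower with DEX + RU-486 (-0.45). In the same contrasts 6 of 9 neuron markers were lower with DEX and 5 of 9 with DEX + RU-486, and 5 of 6 and 3 of 6 markers of the oligodendrocyte lineage were higher. The neuron markers not called with DEX were Slc17a7 (-0.63), Gad1 (0.26) and Gad2 (0.54). Of 5 astrocyte markers, Gfap (2.43), Gja1 (2.53) and Aldh1l1 (1.40) were higher with DEX, and Gfap (2.32) and Gja1 (2.73) with DEX + RU-486. Slc1a3 (0.24) and Aqp4 (-0.97) were not called with DEX. No marker of microglia, endothelial and mural cells or dividing cells was called with DEX, while Rgs5 (1.88, mural cells), Mki67 (1.33) and Top2a (1.35, both of dividing cells) were higher with DEX + RU-486. Summed neuron markers were at 3409 to 4399 CPM in batch 1 controls, 2571 to 3561 with DEX and 2762 to 3634 with DEX + RU-486, summed oligodendrocyte lineage markers at 59.0 to 271, 458 to 738 and 210 to 616, and summed astrocyte markers at 11.5 to 19.4, 16.7 to 27.4 and 16.3 to 37.8. The part of cell composition in the lower subunit genes was not tested.

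In the intact libraries of batch 2, no member was called with DEX by edgeR, with or without RIN as a covariate (0 either way, background 0.0344% of genes higher and 0.0197% lower; before adjustment, 8 and 8, or 10% each, where 6.87% and 6.83% of all genes were). DESeq2 called 3 higher, Atp5mpl, Atp5k and Cox5b, and without DEX replicate 30 edgeR called 2 higher and 1 lower. The median was -0.04. Atp5mpl, a small proteolipid of the membrane part of ATP synthase (chr12:111961375-111966977), was at 32.4, 29.4, 31.9 and 25.1 CPM in the 4 controls and at 53.8, 49.2, 51.8 and 35.8 with DEX. The DEX and control libraries did not overlap, and those with DEX + RU-486 (33.1, 36.9, 31.2 and 32.2) reached from the control range to the lower end of the DEX range. Its change with DEX was 0.70 ± 0.16, with an edgeR Benjamini-Hochberg adjusted p of 0.0888.

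Atp5k, the e subunit that sits at the dimer interface of ATP synthase (chr5:108433244-108434448), was at 18.5, 17.3, 18.5 and 7.20 CPM in the batch 2 controls and 31.2, 30.8, 30.3 and 23.1 with DEX, again without overlap. Its change was 0.93 ± 0.23 (edgeR, Benjamini-Hochberg adjusted p = 0.107), and 1 control library was far below the others. Cox5b was at 81.5, 69.2, 73.7 and 55.5 CPM in controls and 101, 105, 97.9 and 93.4 with DEX, and changed by 0.52 ± 0.15 (edgeR Benjamini-Hochberg adjusted p = 0.133). The lowest values were those of Uqcr10 (-0.45), Atp5g3 (-0.45) and Cox5a (-0.44). Ndufs1, Uqcrc2 and Atp5b, lower in batch 1, had no call in batch 2.

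DEX + RU-486 in batch 2 gave 0 calls against control (1 higher and 4 lower before adjustment, where 2.81% and 2.29% of all genes were, 0 by DESeq2, background 0%), with a median of -0.08. Against DEX it gave 0 calls by edgeR (2 and 12 unadjusted, or 2.5% and 15%, where 8.11% and 6.91% of all genes were, background 0.236% higher and 0.147% lower), with a median of -0.05, while DESeq2 called Atp5g1 higher and Atp5mpl lower and edgeR without DEX replicate 30 called 1 each way. The median of complex II was below zero in every treatment contrast above, from -0.34 to -0.08, without a test of this pattern.

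The difference between the batches in the response to DEX was tested as an interaction. By edgeR, 2 of the 80 genes responded more positively in batch 2 and 0 less (2.5%, background 3.18% of genes; 17 and 2 before adjustment, or 21.3% and 2.5%, where 11.4% and 7.30% of all genes were), a share near the background. Atp5mpl differed by 0.91 ± 0.21 (edgeR Benjamini-Hochberg adjusted p = 0.0116), with controls of batch 1 at 48.4 to 70.4 CPM (median 59.3) and DEX libraries at 49.1, 43.1, 38.6, 66.0 and 61.4. Ndufb8, an accessory subunit of the membrane arm of complex I (chr19:44548572-44555440), differed by 0.74 ± 0.21 (adjusted p = 0.0412 by edgeR and Benjamini-Hochberg). Its batch 2 values were 32.2, 28.6, 26.8 and 24.8 CPM in controls and 39.8, 43.3, 34.6 and 32.7 with DEX, without overlap, and in batch 1 it was at 36.2 to 59.0 (median 44.8) in controls and 30.2, 35.6, 29.1, 44.7 and 50.7 with DEX. Neither was called with scaling by total counts alone, and only 1 higher member was called without control replicate 1, 2, 4, 5, 6, 21, 23 or 24 or DEX replicate 7, 8, 9, 28 or 29, 0 without control replicate 22, 4 without control replicate 3 and 7 without DEX replicate 11. The interaction of DEX + RU-486 with the batch called 0 members against control (5 higher and 0 lower before adjustment, where 9.54% and 6.25% of all genes were, 0 by DESeq2, background 1.27% higher and 0.639% lower) and 0 against DEX (3 and 8 before adjustment, where 5.35% and 5.81% of all genes were, 0 by DESeq2, background 0.00491% lower).

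**Figure D3:**
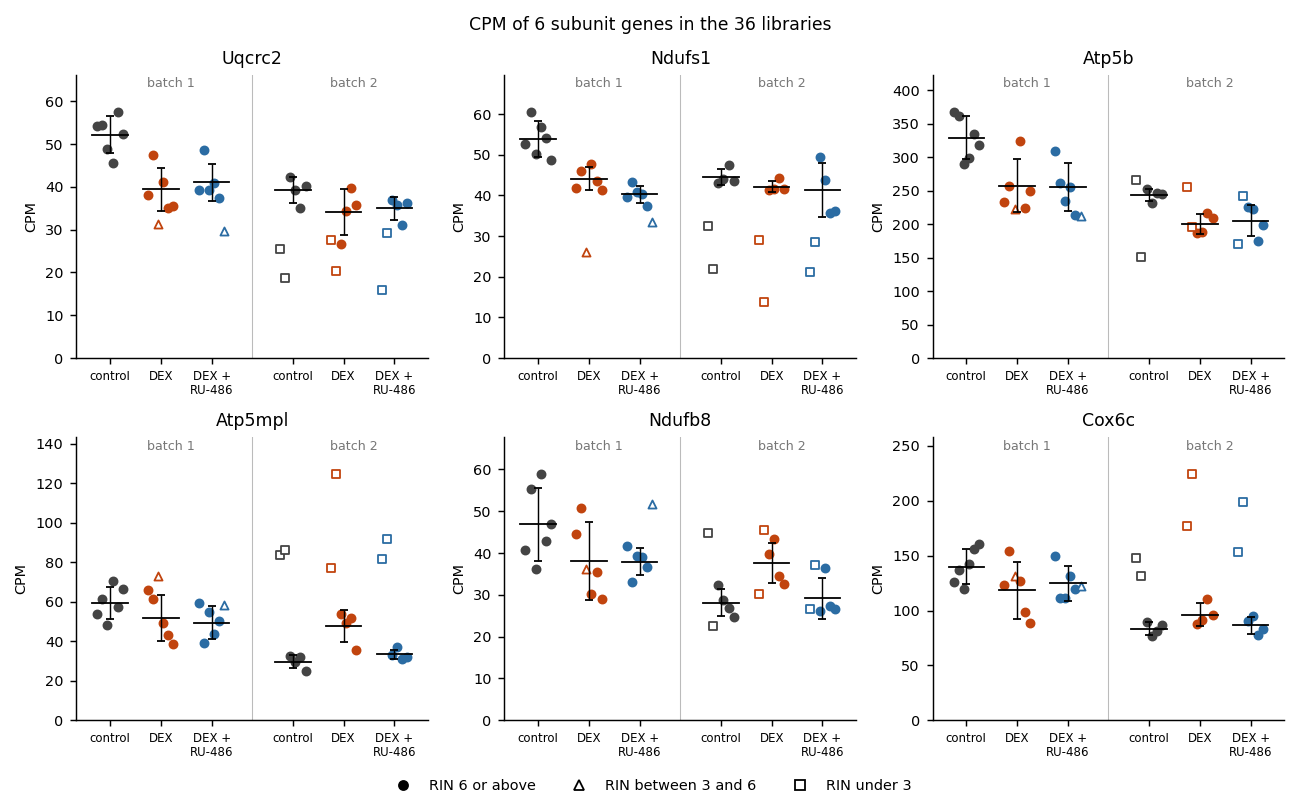
CPM of Uqcrc2, Ndufs1, Atp5b, Atp5mpl, Ndufb8 and Cox6c in each of the 36 libraries, by group within batch, with filled circles for RIN of 6 or above, triangles for RIN between 3 and 6, and squares for RIN under 3; bars give the mean ± SD of the filled circles. Ndufs1 is lower in all 5 intact DEX libraries of batch 1 (41.3 to 47.8) than in its controls (48.7 to 60.6), and Cox6c is higher on this TMM scale in the libraries of RIN under 3 (131 to 225) than in the intact ones of batch 2 (76.5 to 111), with a log2 change that goes from 0.93 to -0.02 when scaled by total counts alone.

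With TMM scaling, the control libraries themselves differed between batches in more of these genes than any treatment contrast did. In intact RNA, 68 of the 80 nuclear subunit genes were lower in the 4 batch 2 controls than in the 6 batch 1 controls and 0 were higher (85%, where the background was 18.9% of entries lower and 14.2% higher, and 23.7% of protein-coding genes lower; none higher before adjustment or by DESeq2). All 80 log2 fold changes were negative, with a median of -0.48 against 0.02 over all genes. In complex III all 9 genes fell, in complex I 31 of 36, in complex IV 11 of 13, in complex V 13 of 17, in complex II 3 of 4, and Cycs. The split of all genes was 42.9% higher, and 51.8% by relative log expression. Scaled by total counts alone, 63 members were lower (15.2% of all genes) with a median of -0.50. With that scaling DEX + RU-486 in batch 1 had more, 66 (30.8% of all genes).

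Atp5mpl had the smallest p, with 25.1 to 32.4 CPM in batch 2 controls below 48.4 to 70.4 in batch 1, a change of -1.03 ± 0.15 (edgeR Benjamini-Hochberg adjusted p = 5.45e-06). Atp5k had the largest fall, -1.09 ± 0.22. Cycs (chr6:50562563-50566538) was at 28.6 to 31 CPM in the 4 controls of batch 2 against 44.1 to 60.6 (median 55.9) in batch 1, a change of -0.91 ± 0.14. Cox6c (chr15:35925886-35938246) was at 89.7, 76.5, 81.5 and 86.4 CPM against 120 to 161 (median 140), and changed by -0.77 ± 0.12. Neither Cycs nor Cox6c overlapped between the batches. Uqcr11, a small subunit of complex III, changed by -0.86, Ndufs8, an iron-sulfur subunit near the quinone site, by -0.75, and Ndufs5 and Ndufb9, accessory subunits of complex I, by -0.69 and -0.64.

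Pathway genes outside the set did not all move that way. Of the 13 mitochondrially encoded subunits 11 were higher in batch 2 controls (mt-Co2 1.48, mt-Co3 1.45, mt-Nd1 0.97). Of 46 assembly factors, 11 were lower and 0 higher, led by Pet100 (-1.12) and Uqcc2 (-1.01). Beside these counts, 23.7% of protein-coding genes were lower and 12.7% higher. Ppargc1a, the coactivator PGC-1α that drives mitochondrial gene programmes, was higher (1.22), and Tfam, which packages and transcribes mitochondrial DNA, lower (-0.27). Neuron markers were lower for 7 of 9 and higher for 2, and all 6 markers of the oligodendrocyte lineage were higher, with sums of 383 to 496 CPM in batch 2 controls against 59.0 to 271. Summed neuron markers were at 2635 to 2960 CPM against 3409 to 4399. Of the other markers, Gja1 (2.22, astrocytes), Cx3cr1 (3.26, microglia) and Top2a (1.44, dividing cells) were higher. The part of cell composition in the batch difference was not tested, and without a RIN limit 28 of the 68 members were still called lower.

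**Figure D4:**
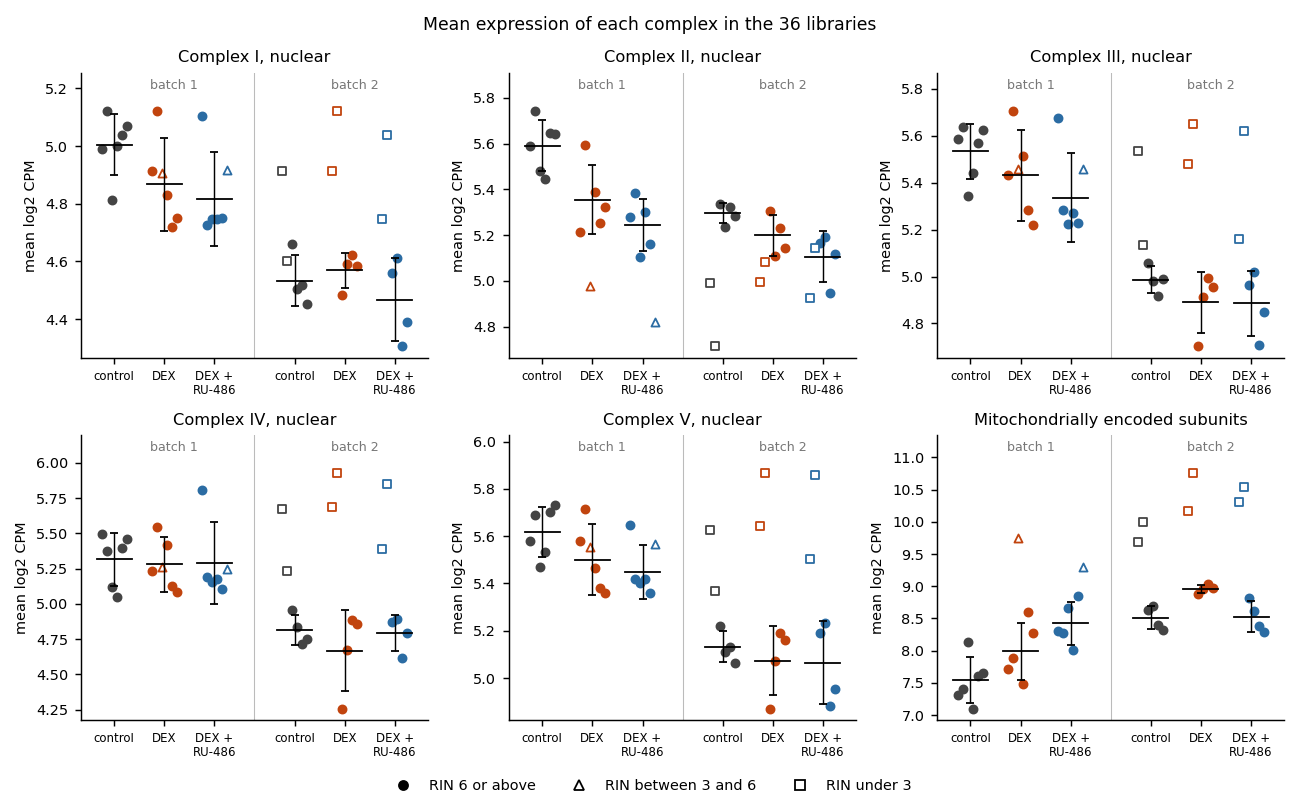
Mean over genes of log2 CPM (prior count 2) for the nuclear subunits of complexes I to V and for the 13 mitochondrially encoded subunits in each of the 36 libraries, by group within batch, with symbols for RIN class and bars for the mean ± SD of the libraries of RIN 6 or above. On this TMM scale the intact libraries of batch 2 lie below all intact ones of batch 1 for complexes I, III, IV and V. For the mitochondrially encoded subunits the intact controls of batch 2 (8.33 to 8.69) lie above those of batch 1 (7.10 to 8.14), while the DEX + RU-486 libraries of the batches overlap (8.29 to 8.82 and 8.02 to 8.86).

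Libraries of low RIN stood apart in these genes, in a direction that depended on the scaling. In batch 2, the 6 libraries of RIN under 3 were set against the 12 intact ones with the group as a covariate. With TMM scaling 48 of the 80 genes were higher (60%, background 28.4%, or 30% of protein-coding genes) and 6 lower (7.5%, background 26.8%, or 29.7% of protein-coding genes), and the median was 0.44 against 0.04 over all genes. As a share of all counts the 80 genes together were lower, at 0.200 to 0.306% (median 0.252%) in the libraries of RIN under 3 and 0.315 to 0.395% (median 0.354%) in the intact ones, without overlap. The TMM factors were 0.43 to 0.78 in the former and 1.06 to 1.34 in the latter. Scaled by total counts alone, 7 members were higher and 50 lower, where 8.10% of all genes were higher and 57.7% lower, and the median was -0.50 against -0.88 over all genes. Relative log expression gave 53 higher and 5 lower. The members thus lay above the median of all genes with each of these scalings, and the directions given here for RIN under 3 are those with TMM. The complexes differed in their medians, 0.89 for complex IV, 0.51 for V, 0.36 for I, 0.26 for III and -0.24 for II. In complex IV all genes were higher except Cox6a2 (0.43) and Ndufa4 (-0.11), which were not called. In complex II 0 of 4 were higher and 2 lower.

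Cox7a2l, which helps complexes III and IV associate (chr17:83501918-83517330), was at 100.4 to 170 CPM (median 133) in the libraries of RIN under 3 and at 33.3 to 46.4 (median 39.0) in the intact ones. The ranges lay far apart, and the change was 1.76 ± 0.099 with an edgeR Benjamini-Hochberg adjusted p of 1.12e-11. Cox8a, the smallest subunit of complex IV (chr19:7215153-7217616), was at 81.9 to 138 CPM against 20.4 to 38.1 (change 1.64 ± 0.11). Uqcr11 (chr10:80402997-80406830) was at 56.3 to 93.6 against 19.9 to 27.6 CPM (1.38 ± 0.10). Atp5e, the epsilon subunit of the central stalk, rose by 1.55, Uqcrh by 1.36, Atp5mpl by 1.31, Cox6b1 by 1.00 and Cox6c by 0.93. Scaled by total counts alone, the 7 higher members were Cox7a2l, Cox8a, Atp5e, Uqcr11, Uqcrh, Atp5mpl and Atp5k, while Cox6b1 (0.06) and Cox6c (-0.02) were not called.

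Lower in the same libraries were Ndufs1 (-0.82), Uqcrc2 (-0.67), Atp5s, a factor associated with complex V (-0.66), Sdhd (-0.45), Sdha (-0.29) and Ndufc2 (-0.29). Ndufs1 was at 13.7 to 32.5 CPM (median 25.2) against 35.8 to 49.5 (median 43.3), with no overlap, and its edgeR Benjamini-Hochberg adjusted p was 1.88e-05. Uqcrc2 was at 15.8 to 29.3 CPM (median 22.9) against 26.7 to 42.2 (median 36), so the ranges met at their edges. Of these 6 genes, 5 (all but Atp5s) were also among the 16 lower with DEX in batch 1, where DEX libraries had the lower RIN. Of the same 16, Uqcrfs1, Atp5a1, Ndufa11 and Atp5o were called higher at RIN under 3, and the rest had no call there. This overlap was not tested. All 13 mitochondrially encoded subunits were higher at RIN under 3, with 2.28 to 3.48% of all counts against 1.66 to 2.55%, and Ppargc1a (-1.64) and Tfam (-0.70) were lower while Yy1 was higher (1.24). Cell markers differed in the same libraries, with 5 of 9 neuron markers higher (Map2 2.32) and 4 lower (Gad1 -2.43, Gad2 -2.41, Syt1 -1.32, Snap25 -0.46). Also higher were 4 of 5 astrocyte markers, 5 of 6 of the oligodendrocyte lineage (Olig2 1.44), 2 of 3 of microglia, both of dividing cells (Mki67 1.64) and all 4 of endothelial and mural cells (Flt1 2.81). Summed neuron markers were at 5707 to 9921 CPM at RIN under 3 and 2545 to 2960 in intact libraries, a sum led by Map2, while their mean log2 CPM was lower (6.92 ± 0.12 and 7.17 ± 0.091, SD, n = 6 and 12). Summed oligodendrocyte lineage markers were at 430 to 2151 and 129 to 1002 CPM. The part of cell composition in the difference by RIN was not tested.

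Within batch 1, the slope of expression on RIN was fitted over the 18 libraries with the group as a covariate. By edgeR, 4 members rose with RIN (5%, background 6.5%) and 3 fell (3.75%, background 7.92%), shares below the background. This too moved with the scaling, since by total counts alone 55 rose and 0 fell (40.1% and 1.39% of all genes), with a median of 0.19 against 0.23 over all genes. Sdhd rose by 0.25 ± 0.055 per RIN unit on the log2 scale (edgeR Benjamini-Hochberg adjusted p = 0.00369), Ndufb2 by 0.21, Sdhc by 0.20 and Ndufs1 by 0.17. Those that fell were Ndufv3 (-0.19), Ndufa13 (-0.25) and Atp5h (-0.18), of which Ndufv3 (0.03) and Atp5h (0.04) turned sign and Ndufa13 (-0.03) lost its call with scaling by total counts alone. Of the 13 mitochondrially encoded subunits 10 fell with RIN.

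Genes of one subunit or one module were not all called in the same contrasts, and differences between genes were not tested. Of the c subunit genes, Atp5g2 was higher at RIN under 3 (1.18 ± 0.20, edgeR Benjamini-Hochberg adjusted p = 3.40e-05; not called with scaling by total counts alone), whereas Atp5g1 (0.19) and Atp5g3 (0.20) were not called. Between control batches Atp5g1 was lower (-0.57), and Atp5g3 (-0.33) and Atp5g2 (-0.16) missed the threshold. None of the 3 was called for DEX, with -0.31, -0.37 and -0.45 for Atp5g1, Atp5g2 and Atp5g3 in batch 2 and 0.01, 0.17 and -0.23 in batch 1.

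The same held for core subunits of complex I that carry its flavin and iron-sulfur clusters. Ndufs1 and Ndufv1 were lower with DEX + RU-486 in batch 1, where Ndufs7 (-0.26) and Ndufs8 (-0.16) were not called. Between control batches Ndufs8 (-0.75), Ndufv1 (-0.49) and Ndufs1 (-0.29) were lower and Ndufs7 (-0.25) was not called. At RIN under 3 Ndufs1 was called, whereas Ndufv1 (-0.14), Ndufs8 (0.02) and Ndufs7 (0.22) were not and lay nearer zero.

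The nuclear subunit genes are short. Their longest GENCODE basic transcripts had a median of 913 bases (371 to 4715), against 3252 over 14672 protein-coding genes tested, and 44 of the 80 were under 1000 bases. The median was 680 bases for complex IV, 838 for V, 977 for I, 1363 for III and 2066 for II, so the order of the 5 complexes by median length was the reverse of their order by median change at RIN under 3. Cycs, of 3123 bases, stood apart from that order with a change of 0.53. Across the 80 genes Spearman's rho between length and log2 fold change was -0.60 for RIN under 3, -0.43 for DEX in batch 1, -0.48 for DEX + RU-486 in batch 1 and 0.23 for batch 2 against batch 1. Over 14657 protein-coding genes it was -0.08, -0.14, -0.06 and 0.12. These values describe genes of the same libraries, which share depth and RIN and are not independent replicates.

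Protein-coding genes in 3 classes of length were set beside the subunit genes, with 44 members under 1000 bases, 26 of 1000 to under 2000 and 10 of 2000 or more. In the first 2 classes the median lengths were close (680 bases for members and 774 for protein-coding genes, then 1483 and 1565), and in the last members were shorter (3012 and 3892). At RIN under 3, 36 of the 44 short members were higher with a median of 0.72, where 53.9% of 709 short protein-coding genes were higher with a median of 0.64. In the middle class 9 of 26 were higher and 3 lower with a median of 0.05 (30% higher, 20.2% lower and 0.12 for 2680 protein-coding genes). Of the 10 long members 3 were higher and 2 lower with a median of 0.17 (28.5% higher, 33.4% lower and -0.04 for 11268 protein-coding genes). With DEX in batch 1, 4 short members were lower (median -0.02, against 0.11 and 4.23% lower for short genes), 8 of the middle class (-0.23, against 0.0045 and 10.3% lower) and 4 of the long ones (-0.24, against -0.10 and 23.1% lower). With DEX + RU-486 in batch 1, 4 short (-0.11), 11 middle (-0.24) and 5 long members (-0.30) were lower, where 3.95%, 9.96% and 18% of genes were lower with medians of 0.05, -0.02 and -0.07. Between batches, 35 short, 24 middle and 9 long members were lower (medians -0.54, -0.44 and -0.43, against -0.29, -0.18 and -0.03, with 32%, 27.4% and 22.3% of genes lower).

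**Figure D5:**
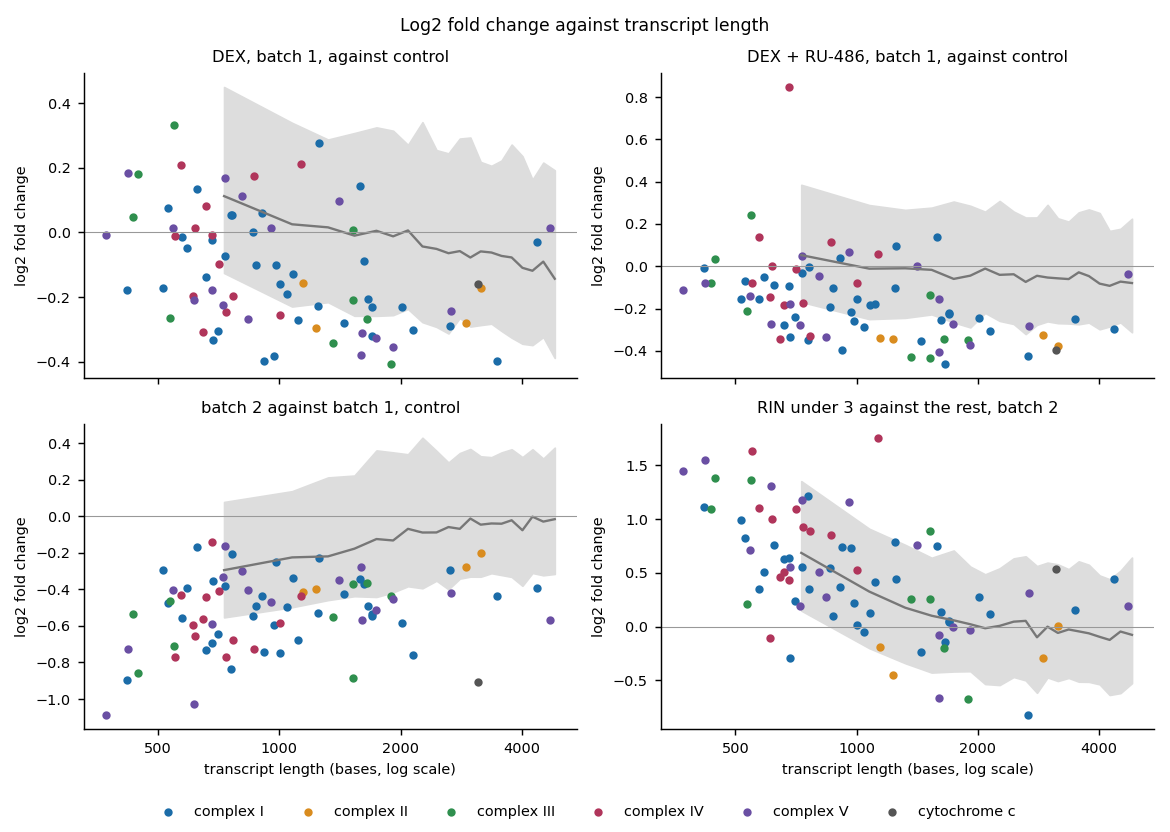
Log2 fold change of the 80 genes against transcript length in bases (log axis) in 4 comparisons, each point a gene in the colour of its complex; the grey line and band give the median and the interquartile range of protein-coding genes in bins of length. Short members lie highest at RIN under 3 with TMM scaling (rho -0.60), and in the contrast of control batches all 80 points are below zero at every length.

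Counting could blur some of these genes. On the opposite strand, 24 of the 80 overlap an exon of another gene, among them Ndufs1 with Eef1b2, Uqcrc2 with Pdzd9, Cox4i1 with Emc8 and Cox6c with Vps13b, and whether reads were counted by strand is not given in the sources used here. For 24 members another gene in the table carries a near-identical stretch, and in 3 of them the copies held more than 10% of the member's own count, namely Ndufb4, Atp5l and Cox5b.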

How the data were processed

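The RNAseq series has 36 libraries of mouse cortical cultures, and group, batch and RIN were taken from the labels. The authors deposited 1 table of counts, whole numbers of reads per gene and library, with no normalization. The submitters' processing notes name HISAT2 2.1.0, Subread 1.5.0-p2 and GRCm38. The methods describe a total RNA library and the labels poly(A) selection, and which of the alignments the methods describe is held in the table was not given in the sources used here. The methods name experimental replicates, but the labels do not say that libraries came from separate cultures, so p-values measure the spread between libraries, which may be technical. All columns were mapped to a library.

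Symbols, coordinates and transcript lengths came from GENCODE M21 (55227 identifiers matched), and entries with a mean count above 5 were tested (20355). The tests were edgeR 4.0.16 quasi-likelihood tests in R 4.3.3 with TMM factors and Benjamini-Hochberg adjustment over all tested entries, called at an adjusted p under 0.05, and the standard error is the log2 fold change divided by the square root of F. The models were all 36 libraries with the batch as a covariate, the 28 libraries of RIN 6 or above as groups by batch, batch 2 with RIN under 3 as a term, and batch 1 with RIN as a slope. CPM used TMM factors of all libraries, log2 CPM a prior count of 2, and levels per kilobase the longest basic protein-coding transcript. Near-identical copies were found with blastn 2.17.0 (at least 95% identity over 150 bases). Total counts of 12.1 to 82.4 M per library set the precision. On data simulated for DEX against control over all 36 libraries and 20355 genes, 80 of 100 genes changed 2-fold and 100 of 100 changed 4-fold were recovered, and 15 of 20155 unchanged genes were called. The simulated means carried no batch or RIN effect, and the changed genes were drawn from those of higher mean count. Changes smaller than 2-fold and contrasts within a batch were not simulated. Alternatives were DESeq2 1.42.0, relative log expression scaling, no filter or at least 10 counts in every library, RIN as a covariate, no batch covariate, other RIN limits and leaving out libraries. The omissions of control replicate 24 and of each batch 1 control, the shortest transcript as the length, the length classes and scaling by total counts alone (TMM factors left out) were added after seeing the data.

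The genes, the lists of other pathway genes and the cell markers were chosen with earlier results of these data known. Genes named were those called, up to 8 per direction by smallest p, the 3 highest and lowest changes per contrast, fixed core subunits and isoform pairs, and up to 4 per direction of the other lists. A few further genes, named where a count is spelled out or a promoter holds a motif, were chosen after their values were seen. The single values of 1 of the 80 genes, which is not named, are not reported here.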

Additional observations from a re-analysis of the deposited data

Results flagged for a closer look

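In the batch 1 cultures treated with DEX + RU-486, replicate 13 (RIN 6.6) stood above the other 4 intact libraries in the mean log2 CPM of complexes I (5.10), III (5.68), IV (5.81) and V (5.65), with a gap wide enough to pass Dixon's 95% limit in each. These means are on the TMM scale, and its TMM factor (0.81) was below those of the other 4 (0.91 to 1.17). As a share of all counts its subunit genes were at 0.367%, inside the range of the other 4 (0.317 to 0.423%). The groups tested this way numbered 42, of which 4 passed, all from this library, where chance passes about 1 in 20. The 4 scores share that library and are not independent.

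The response to DEX differed between the batches for Atp5mpl (0.91 on the log2 scale, batch 2 minus batch 1) and for Ndufb8 (0.74) by edgeR's interaction test.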

How the results depend on the processing

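The cause of the following shifts was not tested. Restricting the contrasts over all libraries to RIN of 6 or above gave 2 higher (Cox5b, Uqcrh) and 11 lower members for DEX and 19 lower for DEX + RU-486. For DEX in batch 1 the 16 lower members became 9 (DESeq2), 6 (relative log expression), 4 (10 counts in every library), 2 (RIN as a covariate) and 2 (all RIN), with 4 to 25 on leaving out a library, and the higher ones 1 (DESeq2) and 5 (10 counts in every library), 0 to 1 on leaving out a library. For DEX + RU-486 in batch 1 the 20 lower became 9 (RIN as a covariate) and 4 (all RIN), with 5 to 22 on leaving out a library. For DEX in batch 2 higher members became 3 (DESeq2), 3 (no filter) and 1 (10 counts), 0 to 2 on leaving out a library (lower, 0 to 1), and the median was 0.11 with all RIN. For DEX + RU-486 against DEX in batch 2 higher members became 1 (DESeq2, no filter, 10 counts) and lower ones 1 (DESeq2) and 2 (no filter), each 0 to 1 on leaving out a library. For the interaction of DEX and batch, higher members became 1 (relative log expression, 10 counts), 5 (no filter) and 0 (all RIN), 0 to 7 on leaving out a library, and lower ones 1 (Atp5d, by DESeq2, relative log expression and 10 counts), 0 to 1 on leaving out a library. Between batches 28 were lower with all RIN, 10 were lower at RIN under 3 with no filter, and DESeq2 gave 5 falling with RIN in batch 1. Of the alternatives for single named genes other than leaving out a library, 240 kept the call, 44 lost it with the direction kept, and 3 reversed, all with scaling by total counts alone, an alternative chosen after seeing the data: Cox6c at RIN under 3 (-0.018), and Ndufv3 (0.034) and Atp5h (0.041) for the slope on RIN. That scaling gave medians of -0.30 for DEX and -0.35 for DEX + RU-486 over all libraries. In batch 1 it gave 38 lower members for DEX (median -0.34), 66 for DEX + RU-486 (-0.52) and a median of -0.20 for DEX + RU-486 against DEX. In batch 2 it gave a median of -0.24 for DEX, and of 0.17 with 1 higher member (Atp5g1) for DEX + RU-486 against DEX. For the interactions with the batch it gave 0 higher members for DEX, 24 for DEX + RU-486 (median 0.48) and a median of 0.36 for DEX + RU-486 against DEX. Between batches it gave 63 lower (median -0.50). At RIN under 3 it gave 7 higher and 50 lower (median -0.50), and for the slope on RIN 55 rising and 0 falling (median 0.19). Medians over all genes with it ran from -0.30 to 0.38 in the treatment contrasts and interactions. On leaving out each intact library of a contrast in turn, the median ran from -0.22 to -0.08 for DEX and -0.26 to -0.12 for DEX + RU-486 in batch 1, -0.14 to -0.01 for DEX + RU-486 against DEX there, -0.06 to -0.02 for DEX and -0.13 to -0.03 for DEX + RU-486 in batch 2, and -0.52 to -0.38 between batches (48 to 68 lower). Apart from that scaling, medians near zero changed sign: DEX over all libraries from 0.01 to -0.11 (RIN as a covariate), -0.08 (RIN of 6 or above), -0.0068 (no batch covariate) and -0.01 (without control replicate 24), DEX in batch 2 to 0.0038 with 10 counts, DEX + RU-486 in batch 2 from -0.08 to 0.01 with all RIN, DEX + RU-486 against DEX in batch 2 from -0.05 to 0.0027 without DEX + RU-486 replicate 35, and its interaction with the batch from 0.03 to -0.02 with all RIN and to -0.03 on leaving out a library. No paired analysis was possible because replicate numbers are unique across groups. A depth of 12.1 to 15.1 M limits the precision of the DEX libraries of batch 1.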
